A study of Caenorhabditis elegans with 2 samples.

Results

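The 8 genes cct-1 to cct-8 encode the subunits of CCT, the cytosolic chaperonin of Caenorhabditis elegans, and were followed here through maps of ZIP-4 binding. They were taken by name from the annotation, as 8 of 19973 nuclear protein-coding genes. ZIP-4 belongs to the bZIP family of transcription factors, which hold DNA through a basic region next to a leucine zipper. The worms were starved first-stage (L1) larvae, 6 hours old, of strain OP590. This strain carries the unc-119(tm4063) mutation and the transgene wgIs590, which holds zip-4 with TY1, EGFP and 3xFLAG tags and unc-119(+) as rescue. Chromatin of whole animals of both sexes was sheared by sonication and immunoprecipitated and sequenced (ChIP-seq). The labels differ on the antibody, which is given as against GFP in the description and as zip-4 in the antibody field. The tag is at the C-terminal end of ZIP-4, and the labels do not name the cells in which the transgene is active. There was 1 group with 2 biological replicates, so every list comes from tagged, starved worms and no test between conditions was possible. All values are from whole larvae, in which the cells that gave the signal cannot be told apart.

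CCT, also called TRiC, is built of a pair of stacked rings, each made of all 8 subunits. It takes up newly made actin and tubulin, among other proteins, and folds them in its cavity with ATP. Prefoldin, a smaller complex, hands unfolded actin and tubulin chains to it. The subunit genes are needed together, because a ring uses each subunit at a fixed place. In C. elegans many messages are trimmed and joined to a spliced leader, so the annotated start of a gene can lie downstream of the place where transcription begins. Neighbouring genes are often close, and a gap between a pair of genes that point away from each other holds the promoters of both.

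3 of the 8 genes had an optimal ZIP-4 peak in the promoter, taken as the span that begins 1000 bp before an annotated transcript start and ends 200 bp after it. These were cct-8 (theta subunit), cct-1 (alpha) and cct-6 (zeta). The optimal set holds the 1290 peaks that the authors kept with the irreproducible discovery rate (IDR) method, and over all protein-coding genes 5.71% had one. cct-7 (eta) and cct-5 (epsilon) had only a weaker candidate region. A region was counted in a promoter only if its summit lay there. By this rule cct-2 (beta), cct-3 (gamma) and cct-4 (delta) had none in any of the 4 lists. All 3 peaks stood in gaps shared with a divergent neighbour, and all 3 summits were nearer to the neighbour's start than to that of the cct gene.

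The genes are spread over 4 chromosomes. By WormBase identifier and ce11 position, cct-8 is WBGene00021934 (IV:1087108-1093920, minus strand), cct-1 is WBGene00000377 (II:8185443-8187601, plus) and cct-6 is WBGene00000381 (III:5853530-5855687, minus). The genes with candidates only are cct-7, WBGene00020391 (V:1872246-1875505, plus), and cct-5, WBGene00000380 (III:4499188-4508114, minus). Those without a region are cct-2, WBGene00000378 (II:8927741-8929815, plus), cct-3, WBGene00018782 (II:2233540-2243539, plus), and cct-4, WBGene00000379 (II:8283667-8285711, plus).

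The sequences under the 3 peaks are shown because they carry the bound stretches and the words discussed below. Each runs 5′ to 3′ on the strand of its cct gene, from the WBcel235 genome of RefSeq, which is the assembly ce11 of the files. Capitals in cct-6 mark matches to the C/EBP-type word TTACNNAA or TTGCNNAA, on either strand. Capitals in cct-8 and cct-1 mark GAANNTTC, a pair of inverted GAA units as found in heat shock elements. The pair in cct-6, TTCTAGAA at base 92, has the other form, TTCNNGAA, and is left in lower case. For cct-8 the whole peak at IV:1094248-1094484 (minus strand, 237 bp) is given, with the summit at base 130. For cct-1 the whole peak at II:8185120-8185289 (plus strand, 170 bp) is given, with the summit at base 79. For cct-6 the peak at III:5855789-5856184 runs into the neighbouring gene, and the 229 bp outside its exon are given (III:5855789-5856017, minus strand), with the summit at base 31.
cct-8: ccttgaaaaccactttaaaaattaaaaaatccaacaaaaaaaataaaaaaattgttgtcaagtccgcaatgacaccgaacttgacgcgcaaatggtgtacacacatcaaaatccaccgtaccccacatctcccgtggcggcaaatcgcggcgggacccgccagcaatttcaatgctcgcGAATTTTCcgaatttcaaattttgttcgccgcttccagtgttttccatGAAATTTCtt
cct-1: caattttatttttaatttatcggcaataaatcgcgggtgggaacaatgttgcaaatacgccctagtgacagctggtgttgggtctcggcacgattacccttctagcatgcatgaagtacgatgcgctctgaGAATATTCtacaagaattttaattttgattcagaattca
cct-6: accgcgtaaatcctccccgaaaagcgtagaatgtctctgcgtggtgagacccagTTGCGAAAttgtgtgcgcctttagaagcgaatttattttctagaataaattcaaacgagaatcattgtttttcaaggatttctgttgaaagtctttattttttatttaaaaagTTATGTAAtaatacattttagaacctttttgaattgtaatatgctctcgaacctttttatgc

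The cct-8 peak was the strongest of the family in every list. Regions were ranked here by signal value, a score deposited with the lists. This peak had a signal value of 456 in replicate 1, 254.2 in replicate 2 and 705.4 with the reads of both pooled. It ranked 32 and 35 in the replicates and 35 in the pooled list, each of 30000 regions. The summits of replicate 1 and replicate 2 lay 3 bp and 11 bp from the pooled one. This summit, at IV:1094355, lay between genes, at -435 bp from the outer start of cct-8 and at -186 bp from that of Y55F3AR.2, a gene for a protein with a thioredoxin domain on the other strand. An annotated non-coding RNA gene, Y55F3AR.4, lay 146 bp from it. cct-8 also has an inner annotated start, and replicate 1 alone had a weak region there, 127 bp downstream in coding sequence, with a signal value of 21.88 at rank 18946.

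cct-1 had the next strongest peak. Its signal value was 203.9 in replicate 1 (rank 163), 154.5 in replicate 2 (rank 96) and 364.8 in the pooled list (rank 119). The summit was at the same base, II:8185198, in all 3 lists. It lay between genes, at -245 bp from the start of cct-1 and -175 bp from that of mig-5, which encodes a Dishevelled protein of Wnt signalling. For cct-6, the signal value was 79.28 in replicate 1 (rank 752), 33.51 in replicate 2 (rank 1130) and 105.6 in the pooled list (rank 870). Its summit, III:5855987, was likewise the same in all 3 lists. It lay between genes, at -300 bp from cct-6 but only -31 bp from alh-9, a gene for an aldehyde dehydrogenase. The pooled signal values of cct-8 and cct-1 were above the median of the 1290 optimal peaks, 133.6, and that of cct-6 lay between this median and the lowest optimal peak, 79.97.

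The order cct-8, cct-1, cct-6 was the same in both replicates, and the ranks of these 3 genes did not overlap between genes. Signal values have no stated scale and differ between lists. Over the 1218 optimal peaks with a partner summit within 100 bp in both replicates, replicate 1 was 1.89 times replicate 2 at the median, with quartiles of 1.54 and 2.34. The ratio was 1.79 for cct-8, inside these quartiles, 1.32 for cct-1, below them, and 2.37 for cct-6, just above them. All 3 peaks had a partner among the 1290 strongest regions of each replicate. The IDR method keeps peaks for their agreement between replicates. Such partners therefore follow largely from membership of the optimal set and are no separate evidence for the cct peaks.

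**Figure D1:**
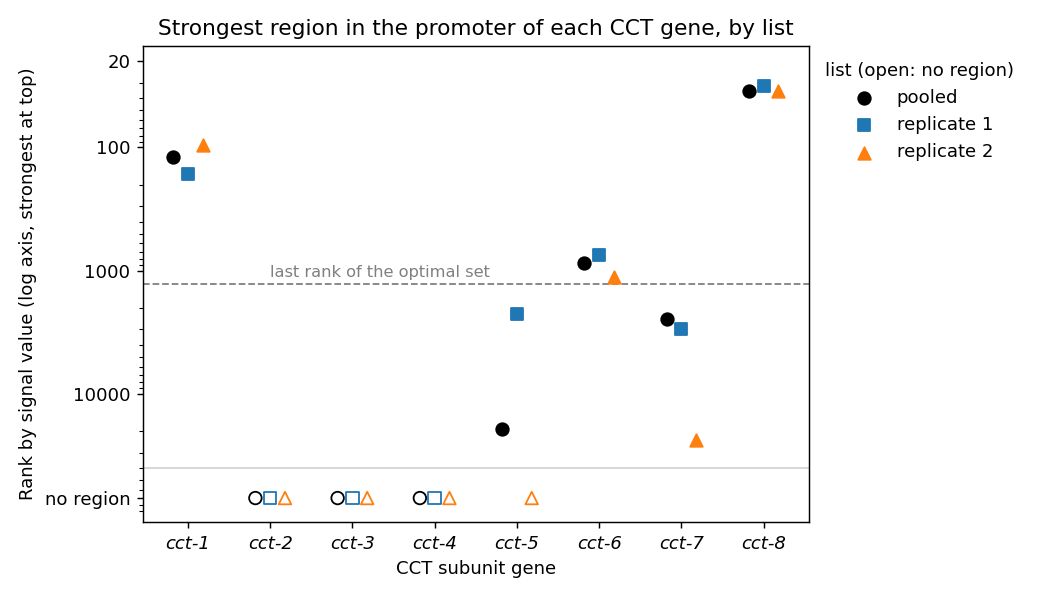
Rank by signal value (log axis, rank 1 at the top) of the strongest region in the promoter of each CCT gene, in the pooled list (circles), replicate 1 (squares) and replicate 2 (triangles), with open symbols for no region. The symbols of cct-8 lie between ranks 32 and 35 and those of cct-1 between 96 and 163, those of cct-6 lie between 752 and 1130, above the dashed line at rank 1290, and cct-2, cct-3 and cct-4 have open symbols only.

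The candidate regions at cct-7 and cct-5 did not enter the optimal set. For cct-7, the pooled region at V:1871754-1872149 had a signal value of 57.19 (rank 2457) and a q-value of 0.231. Its strongest region had a signal value of 37.3 in replicate 1 (rank 2956) and 13.01 in replicate 2 (rank 23631). The pooled summit lay at -294 bp from cct-7, at -145 bp from T10B5.4 (a predicted N-acetyltransferase gene) and 28 bp from the non-coding RNA gene T10B5.13. The replicate summits stood 85 bp and 84 bp from it on opposite sides. That of replicate 1 was at -209 bp from cct-7, whose start was then the nearer, and that of replicate 2 was at -378 bp from cct-7 and -61 bp from T10B5.4. Replicate 1 had a further weak region at cct-7, with a signal value of 21.03. Its summit was 24 bp downstream of the outer start and 18 bp downstream of the inner annotated start.

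For cct-5, the region at III:4507865-4508260 had its summit in coding sequence, 51 bp downstream of the start. Its signal value was 31.59 in the pooled list (rank 19426, q-value 0.594) and 41.01 in replicate 1 (rank 2237, q-value 0.145), and replicate 2 had no region in this promoter. cct-7 ranked above cct-5 in the pooled list and cct-5 above cct-7 in replicate 1, so these genes had no stable order. Stronger signals stood inside cct-5, far from its start. The optimal peak at III:4503322-4503717 lay in an intron, 4594 bp downstream, with signal values of 57.15 in replicate 1 (rank 1184), 34.79 in replicate 2 (rank 1070) and 95.59 in the pooled list (rank 991). No annotated non-coding gene lay within 200 bp of it, and it held no C/EBP-type word within 50 bp of the summit. It was the only optimal peak with its summit in the body of any cct gene. Of the 9 pooled summits in the body of cct-5, the next strongest was also in an intron, 2185 bp downstream. Its pooled signal value was 66.54 (rank 1727), and it ranked 1467 in replicate 1 but only 25724 in replicate 2.

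The other 3 genes had no summit in the promoter in any list. The nearest pooled summit to the start was 1500 bp downstream for cct-2 (signal value 34.25, rank 15106) and 1218 bp downstream for cct-4 (26.8, rank 29678), both inside the genes. In replicate 2 alone a region of cct-2 had its summit close to the promoter, 304 bp downstream, with a signal value of 19.93 at rank 6132. With any base of a region counted in place of the summit, replicate 2 had a region at 5 cct genes in place of 4. cct-3, which spans 10000 bp, held no summit in its body in any list, and its nearest pooled summit was at -12959 bp. Of the 407 protein-coding genes within 1000 bp of its length, 16.2% had no pooled summit in the body either. The nearest optimal peaks were 41728 bp from cct-2, 56115 bp from cct-3 and 45494 bp from cct-4. A missing region shows only that no candidate was listed there, since the sequencing depth is not given in the sources used here.

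The counts can be read beside those of all genes. A pooled region of any strength stood in the promoters of 5 of the 8 genes, and in 39.7% of all protein-coding genes. With a q-value of 0.05 or less it was 3 of 8, and 6.23% of all genes. Replicate 1 had a region at 5 of 8 (40.3% of all genes) and replicate 2 at 4 of 8 (39.4%). Ranked by the strongest pooled region in the promoter, 38 genes stood above cct-8, 119 above cct-1 and 845 above cct-6. cct-7 had 1657 genes above it, or 8.3% of all, and cct-5 had 5837, or 29.2%. The median of the 8 genes, with genes that had no region placed below all others, was 44.39, between cct-7 and cct-5. Over all protein-coding genes that median gene had no region, and among the 7925 genes with a region it was 37.74.

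**Figure D2:**
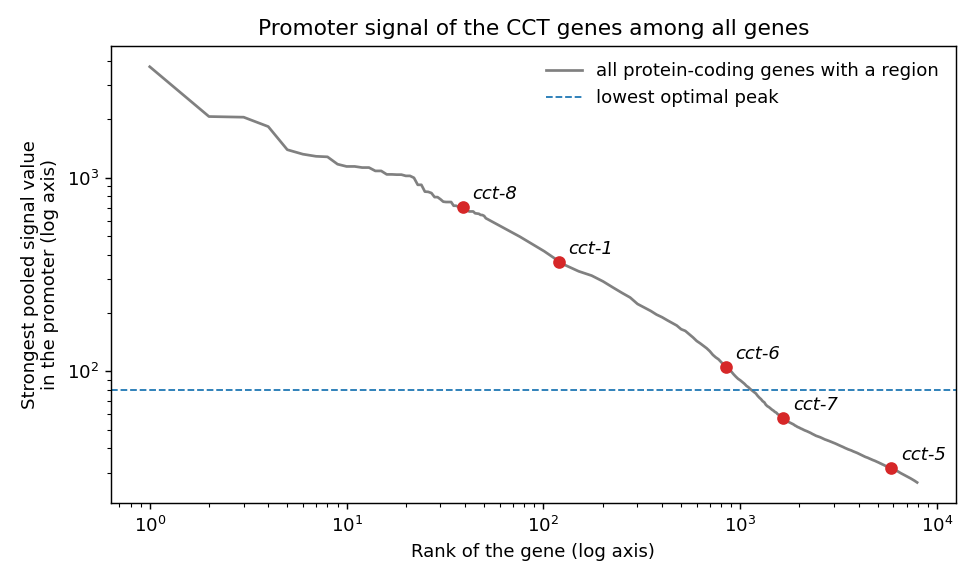
Strongest pooled signal value in the promoter (log axis) against the rank of the gene (log axis) for all protein-coding genes with a region (grey line), with the CCT genes as red points and the lowest optimal peak as a dashed line. cct-8, cct-1 and cct-6 lie above the line at 79.97, cct-7 and cct-5 below it, and the 3 genes with no region are not drawn.

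The 8 genes share an arrangement with their neighbours. They were chosen with earlier results of these data known, so the arrangement is described and was not tested. In all 8 the nearest upstream protein-coding gene pointed the other way, so each has a divergent neighbour. Over all protein-coding genes this held for 45.4%. The gap between the pair was 330 bp at cct-6, 419 bp at cct-1, 438 bp at cct-7, 458 bp at cct-4, 620 bp at cct-8, 740 bp at cct-5, 1069 bp at cct-3 and 1189 bp at cct-2. Its median was 539 bp, against 1550 bp over all divergent genes. The widest gaps belonged to cct-3 and cct-2, both without a region, but the gap of cct-4, also without one, was narrower than that of cct-8. Among the 3919 protein-coding genes with a divergent neighbour at 1189 bp or less, a limit set after the gaps were seen, 13.5% had an optimal peak in the promoter.

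Every pooled region at a cct promoter was also in the promoter of its neighbour. By the pooled summit the neighbour's start was nearer for 4 of the 5, though not in replicate 1 for cct-7. The exception was cct-5, whose summit was at -792 bp from the start of F25F2.1 (a protein kinase domain gene). Over the 876 optimal peaks in promoters, 35.5% lay in promoters of more than a single gene. When each optimal peak was given only to the gene with the nearest start, no cct gene kept one, and the peaks went to Y55F3AR.2, mig-5 and alh-9. By this rule the 876 peaks can go to at most 876 of the 19973 protein-coding genes. The distance of the summit from the nearest start was -186, -175 and -31 bp for these 3 peaks, beside a median of -188 bp and quartiles of -355 and -82.2 bp over all promoter peaks. Which gene of a pair is served by the bound stretch was not tested, and the peak lists cannot tell them apart.

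**Figure D3:**
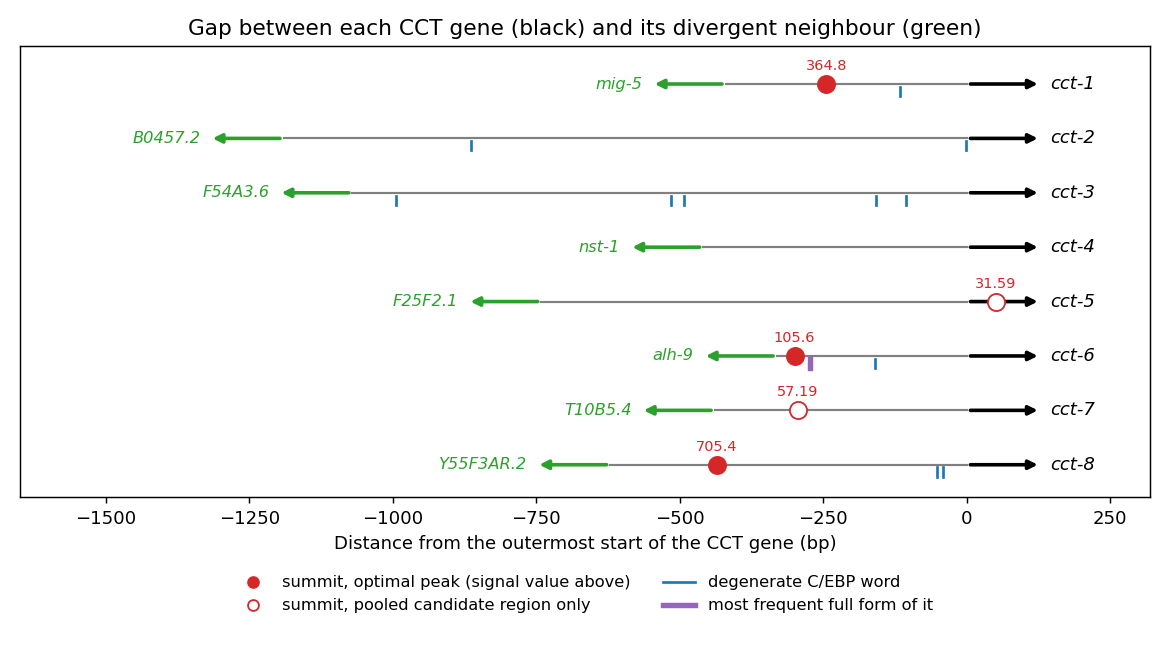
Each CCT gene (black arrow, start at 0 bp) with the gap to its divergent neighbour (green arrow), on a linear axis of distance in bp; red points are pooled summits with their signal values, filled for optimal peaks, and ticks mark C/EBP-type words within the gap. The filled points of cct-8 (705.4), cct-1 (364.8) and cct-6 (105.6) lie on the neighbour's side of the gap, and the thick tick, the full word TTGCGAAA, is at cct-6 only.

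C/EBP-type words were at the summit of cct-6 only. Words were searched on both strands, and a word had to lie whole in the 101 bp centred on the summit. cct-6 held TTGCGAAA, which is a form of TTGCNNAA, starting 24 bp from the summit on its strand, as the capitals above show. Windows of all 1290 optimal peaks held TTACNNAA or TTGCNNAA in 26.5% and TTGCGAAA in 16.8%, while the 28710 other pooled regions held them in 16.2% and 1.13%. Neither the cct-8 nor the cct-1 window held any of the words searched, which also included the C/EBP forms TTGCGCAA (1.16% of optimal windows) and TTACGAAA (1.86%). The remaining words were the repeat GAGAGAGA (5.19%), the E-box CACGTG (3.49%), the word TGACGT (5.35%) and the GATA word AGATAA (3.18%). The summit windows had a GC content of 58.4% at cct-8, 52.5% at cct-1 and 46.5% at cct-6, beside a median of 46.5% and quartiles of 40.6% and 52.5% over optimal peaks.

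Heat shock element pairs were counted in promoters and around summits. These pairs, GAANNTTC or TTCNNGAA, are the inverted GAA units to which the heat shock factor binds in many species. In the 300 bp from 250 bp before to 50 bp after the outer start, 7 of the 8 genes held at least 1 pair, cct-2 being the exception, and 32.5% of the 19973 promoters of that length did. These were all 3 genes with an optimal peak and 4 of the 5 without. Around the summits the count turned on the width of the window. Within 50 bp of the summit none of the 3 optimal peaks held a pair, and 7.52% of all optimal windows and 11.5% of the other pooled regions did. Within 100 bp all 3 held one, and 17.3% of all optimal windows and 22.4% of the other regions did. The nearest ones under the peaks began 50 bp from the summit at cct-8, 53 bp from it at cct-1 and 61 bp from it at cct-6. In the same 300 bp, C/EBP-type words were in 5 of 8 cct genes, cct-1, cct-2, cct-3, cct-6 and cct-8, and in 43.2% of all promoters. TTGCGAAA was in none of the 8 and in 3.26% of all, as the copy at cct-6 lies farther upstream. A match is only a run of letters and says nothing of the factor.

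The partners of CCT in folding actin and tubulin were described in the same way. Of 34 genes for prefoldin, actin, tubulin and tubulin cofactors, 11 had an optimal peak in the promoter and 22 had a pooled region, beside the 5.71% and 39.7% of all genes. Among the 6 prefoldin genes, 2 had an optimal peak, pfd-1 (signal value 261, rank 228) and pfd-6 (171.8, rank 464), and pfd-3 stood just outside the set at rank 1298 (79.59). As at cct-8, the pfd-1 peak was shared with a neighbour, F01G4.6, whose start was nearer (-275 bp against -334 bp). Of the 7 tubulin folding cofactor genes, only tbca-1 had an optimal peak (171.6, rank 465).

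The clients were led by tubulin. tbb-2, a beta-tubulin, had a signal value of 641.4 at rank 44, close to that of cct-8, with ranks of 43 in replicate 1 and 49 in replicate 2. tba-2, an alpha-tubulin, had 517.1 at rank 71. The other tubulin peaks were at tbb-6 (209.8), tba-1 (173.2), tbg-1 (gamma-tubulin, 104.3) and mec-12 (an alpha-tubulin of touch neurons, 87.07), which made 6 of 16 tubulin genes. The tbg-1 peak was nearer to the start of rpac-19, an RNA polymerase subunit gene. Of 5 actin genes, act-4 had 115.5 (rank 778) and act-1 had 88.12 (rank 1117), but act-1 ranked 787 in replicate 1 and only 6954 in replicate 2. Counted by promoter span, the share of CCT genes with a peak, 3 of 8, was near that of these partner genes, 11 of 34. The peak summits at tbb-2 (-697 bp), tba-2 (190 bp) and tbg-1 (-831 bp) lay outside a span of 500 bp upstream to 100 bp downstream. With that span the CCT count stayed at 3, and the partner count was not repeated. By the nearest start, however, no cct gene kept a peak. Each of the 11 partner genes with a peak, other than pfd-1 and tbg-1, had the start nearest to its own peak. The share of all genes that keep a peak by this rule was not counted. It is limited, as the 876 optimal peaks in promoters can go to at most 876 of the 19973 protein-coding genes. No difference between CCT and partner genes was tested.

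**Figure D4:**
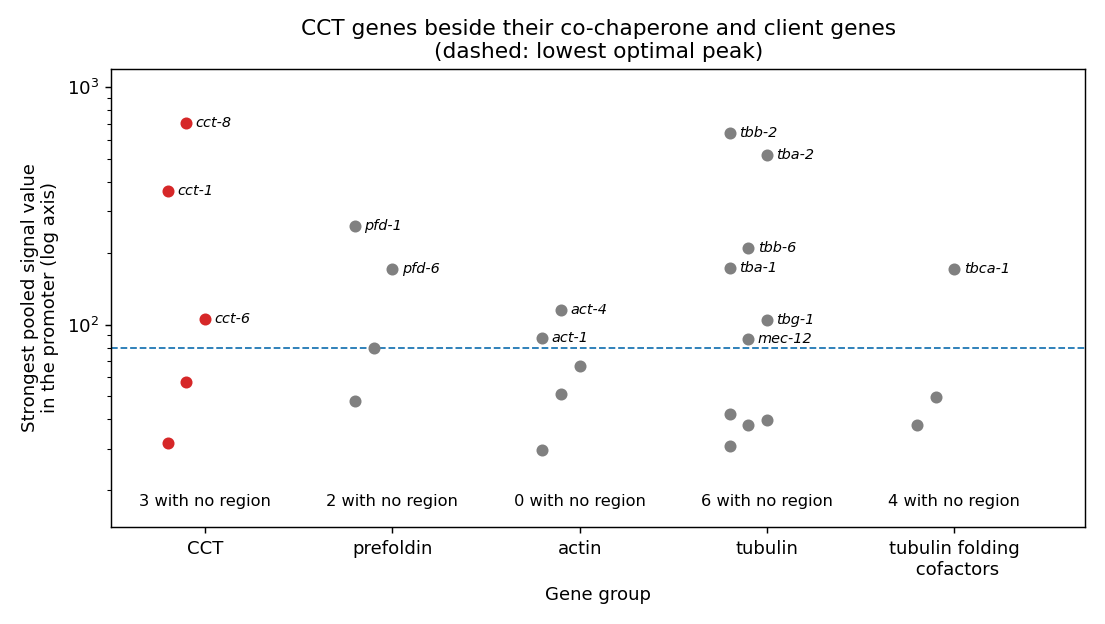
Strongest pooled signal value in the promoter (log axis) of each CCT gene (red) and of the prefoldin, actin, tubulin and tubulin cofactor genes (grey), with genes above the dashed line of the lowest optimal peak named and the number with no region written at the bottom. cct-8 (705.4) is followed by tbb-2 (641.4) and tba-2 (517.1), and only the actin group has no gene without a region.

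By signal in both replicates, the promoter peaks most like that of cct-8 were found among 834 other promoter peaks with a partner in both lists. They lay at tasp-1 and K01G5.10 (distance 0.058 on the log2 scale of the 2 signal values), at cux-7, C07H6.2 and lig-4 (0.15) and at tos-1 (0.16). Their pooled signal values were 715.4, 668.3 and 750.7. The likeness is one of size in 2 libraries of a single condition.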

How the data were processed

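Values are from 4 narrowPeak lists on ce11: 30000 regions for each of 2 replicates and for their pooled reads, made as input for IDR against 1 control alignment, and the optimal set, per the labels and the file descriptions. The signal value, the −log10 q-value and the summit offset were used as the authors deposited them. No aligner, peak caller, IDR threshold or read depth is given in the sources used here. The 1290 optimal peaks were the 1290 strongest pooled regions.

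Starts came from Ensembl release 115 (WBcel235, the same assembly); all 8 genes had the same span in RefSeq. Each summit inside a promoter was assigned to it with Python 3.11.15; coordinates are 1-based, with distances negative upstream. Partners were summits within 100 bp. The assignment was tested on simulated data. The members, words and gene lists were chosen with earlier results of these data known, so no set test was made and no p-value is given. All members, neighbours sharing a region, listed partner genes with an optimal peak and the 3 peaks most like the strongest were named; other names were added after their values were seen. Alternatives changed promoter width, starts, assignment, ranking, partner distance and word window.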

Additional observations from a re-analysis of the deposited data

How the results depend on the processing

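Of 44 alternatives over 21 results, 39 left the count or value the same within 1.5 times and 5 moved it. With each optimal peak given only to the gene with the nearest start, the count of cct genes with a peak was 0 in place of 3, since all 3 summits were nearer to the neighbour. The C/EBP-type word at cct-6 was outside the window within 25 bp of the summit, so the count was 0 in place of 1. With promoters from 2000 bp upstream to 500 bp downstream, replicate 2 had a region at 7 genes in place of 4. When the region nearest to a start replaced the strongest, the signal value in replicate 1 was 21.03 for cct-7 and 21.88 for cct-8, in place of 37.3 and 456. Without replicate 1 or replicate 2, the 1290 strongest regions of the other gave 3 to 3 genes. With the 645 stronger optimal peaks the count was 2, as cct-6 ranks 870. No paired analysis was possible because there was 1 group. Depth limits what an empty promoter shows, and the lists stop at 30000 regions.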

Other observations

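The printed peaks of cct-1 and cct-8 were searched for shared letters after they were seen. The longest run with at least as many G and C as A and T letters was AAATCGCGG, 9 letters, beginning at base 28 in cct-1 and base 142 in cct-8 on the same strand. Within 100 bp of the summit it was in 5 of 1290 optimal peaks (0.388%) and in 33 of 28710 other pooled regions (0.115%). The peaks of cct-1 and cct-8, for which the word was chosen, are 2 of these 5, so the shares are no comparison. The cct-6 peak did not hold it, and its longest such run shared with cct-1 was TGGGTCTC, found in 1.94% of optimal peaks, which include both, and 0.773% of the other regions.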
